A study of Mus musculus with 4 samples.

Results

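The comparison of ATRA cream with control cream asked what 5 days of topical all-trans retinoic acid (ATRA) did to gene expression in mouse back skin. It rests on 2 of the 4 arrays of the study, 1 for each cream. The genes described are those whose log2 intensity, averaged over all 4 arrays, was 8.5 or more, an intensity of about 362. This rule kept 6366 of the 24204 genes on the array, or 26.3%, and they are called bright here. With 1 array per group no difference could be set against a spread between animals, so no test was made, and "higher" and "lower" describe these arrays only.

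The mice were male BALB/c, an albino strain, aged 8 weeks, and the back skin received its cream 2 times a day for 5 days. The Control array is skin under an oil/water cream without either agent, and the ATRA array is skin under a 0.1% ATRA cream. The other two arrays are skin under 0.1% ATRA cream together with a nicotinamide (NIC) cream, called ATRA+NIC, and under NIC cream alone, whose strength the labels do not give. The labels do not say whether each array holds 1 animal or a pool, whether the 4 skins came from different animals, or at which stage of the hair cycle the skin was taken. The series is titled as epidermis, whereas the labels name whole skin as the source of the RNA. No strain, genotype or allele differed between the groups.

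ATRA is an acid made in cells from vitamin A. It binds the retinoic acid receptors (RAR), which pair with retinoid X receptors on DNA and switch genes on when the ligand is bound, and topical ATRA is known for thickening the living epidermis, loosening the cornified layer and irritating the skin. The hair follicle makes the hair shaft from keratins and from keratin-associated proteins that cross-link them, inside a guiding inner root sheath, and it does so only in the growth phase of its cycle. The cornified layer of the epidermis is built from envelope precursors such as loricrin, the small proline-rich (SPRR) proteins and the late cornified envelope (LCE) proteins, most of them encoded side by side in the epidermal differentiation complex.

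The labelled tissue was checked against genes that define it before any comparison, and the 4 arrays went against their label in a pair of respects. Skin genes were bright on every array. Genes of liver were bright as well: of 30 listed liver genes 28 were bright, among them albumin (Alb), with intensities of 11694 on the Control array, 15459 on the ATRA array, 14689 on the ATRA+NIC array and 8302 on the NIC array. The liver cytochrome Cyp2e1 read 28202, 32254, 28048 and 25561 in the same order, while the liver urea cycle gene Otc stayed near the random control probes, at 41.1, 44.4, 42.0 and 47.1. Of 10 listed heart genes 4 were bright, including the heart myosin Myh6 at 1287, 1382, 1809 and 855, whereas none of 15 genes of kidney, lung, brain, pancreas and testis was bright. The median of ATRA minus Control was 0.12 (log2) over the bright liver genes and 0.48 over the bright heart genes, and none was 2-fold higher or lower. In ATRA+NIC minus NIC the same lists had medians of 0.57 and 1.25, with 4 of 28 liver genes and 3 of 4 heart genes at least 2-fold higher and none lower. The part of other tissue in the results was not tested.

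**Figure D1:**
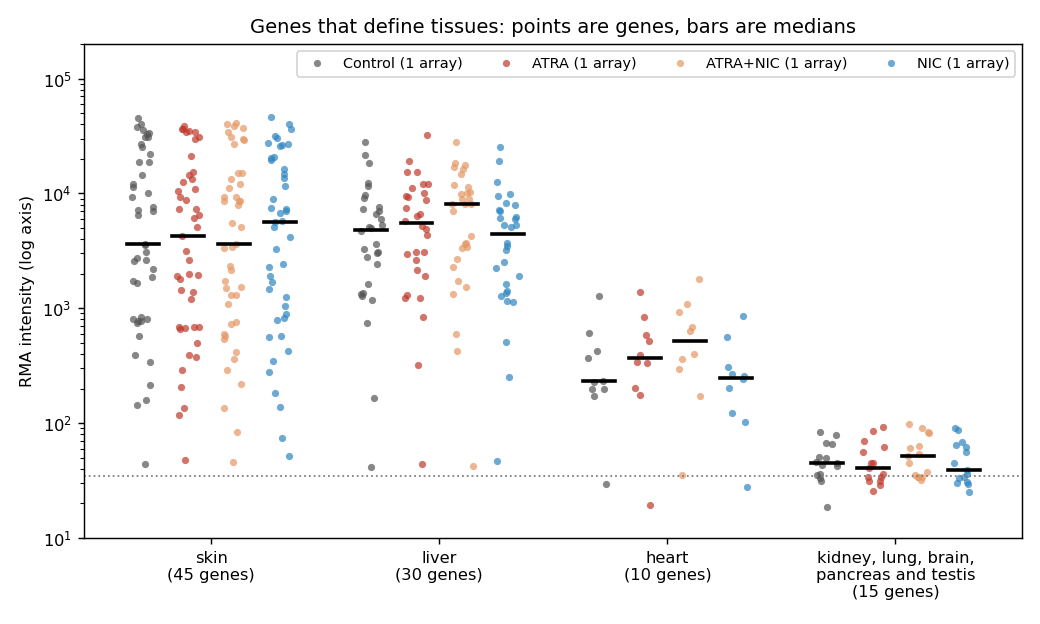
RMA intensity on a log axis of genes that define skin (basal and suprabasal keratinocyte genes), liver, heart, and a group of 5 other tissues, with 1 point per gene for each of the 4 arrays and a bar at the median. The dotted line is the RMA intensity of the random control probes on the ATRA array, 34.8, and the liver genes reached the level of the skin genes on every array.

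The second respect was sex. The mice are labelled male, yet Xist, which is transcribed from the inactive X of female cells, read 1167, 765, 894 and 1136 in the same order. Of the Y-linked genes, Ddx3y stayed between 47.1 and 49.3, within 2 times the random probes, and Eif2s3y read 459, 203, 432 and 252. Random probes had medians of 34.2, 34.8, 36.3 and 34.0. The median of all targets lay between 102 and 105 on the 4 arrays, whose values the authors had already normalized between arrays.

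Of the 6366 bright genes, 92 (1.45%) were at least 2-fold higher on ATRA than on Control, and 189 (2.97%) were at least 2-fold lower. The middle of the distribution was narrow: 83.77% of bright genes lay within 1.5-fold, 95.59% lay within 2-fold, and the median difference was 0.08 on the log2 scale, with 5th and 95th percentiles of −0.74 and 0.71. The lower side reached much further. At 4-fold 10 genes were higher and 112 lower, and at 16-fold no gene was higher and 59 were lower.

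ATRA+NIC minus NIC shares no array with ATRA minus Control and is a second reading of ATRA, made on skin that had nicotinamide on both sides. It had 239 bright genes at least 2-fold higher (3.75%) and 267 at least 2-fold lower (4.19%). Both comparisons had 137 of the same genes lower (2.15% of bright genes), which is 72.49% of the 189 and 51.31% of the 267. They had 30 of the same genes higher (0.471% of bright genes), which is 32.61% of the 92 and 12.55% of the 239. Of the 92 higher genes 72 were also above 0 in the second reading, and of the 189 lower genes 161 were also below 0.

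**Figure D2:**
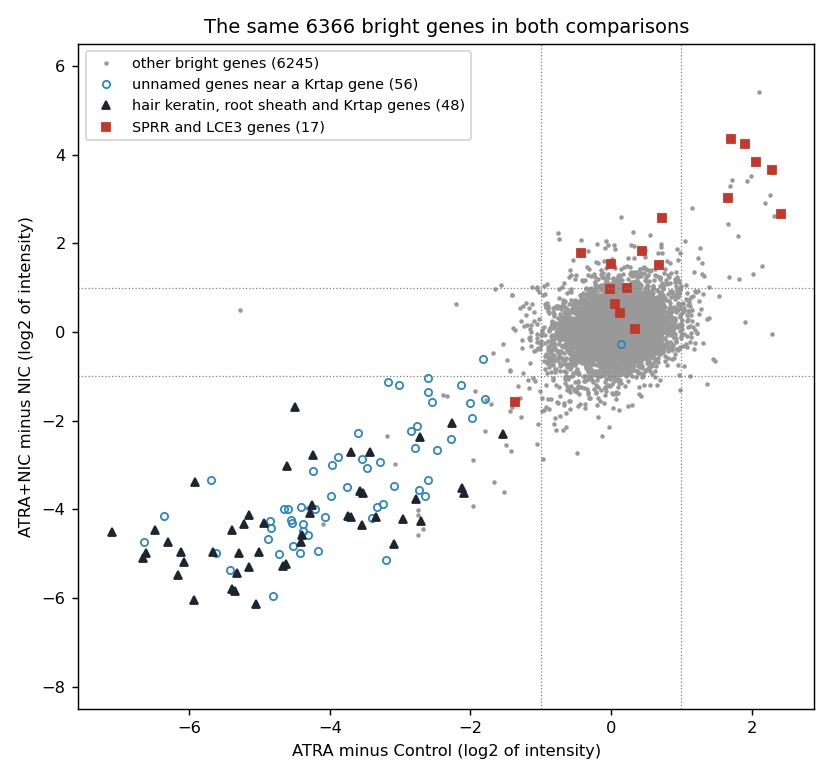
ATRA minus Control (horizontal) against ATRA+NIC minus NIC (vertical), both as log2 differences of intensity, with 1 point per bright gene and dotted lines at 2-fold. The hair genes and the unnamed genes beside keratin-associated protein genes lie at the lower left, and several SPRR and LCE3 genes lie at the upper right.

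The genes that were lowest with ATRA made hair. Of the array's hair shaft keratins, hair keratin-associated proteins (Krtap) and inner root sheath keratins with trichohyalin, 48 genes were bright, and all 48 were at least 2-fold lower in both readings. Their median was −4.62 for ATRA minus Control and −4.34 for ATRA+NIC minus NIC, beside 0.08 and 0.03 over all bright genes. On the ATRA array 9 of the 48 read below 2 times the random probes, and on the Control array none did. The level rule averages all 4 arrays, so a gene could pass it through high values on the arrays without ATRA alone. Tgm3, Cst6 and Gata3 of the inner root sheath list were not counted among the 48. With no level rule, all 12 shaft keratins on the array and 8 of 11 genes of the inner root sheath list were 2-fold lower. No such count is given here for the Krtap genes. In bulk skin RNA, fewer cells of a type and less RNA per cell cannot be told apart.

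Krt34, an acidic keratin of the hair cortex, had the lowest value among the shaft keratins and lies at chr11:99898701-99902846 (MM9). Its intensity was 7193 under control cream, 71.2 under ATRA, 630 under ATRA+NIC and 21543 under NIC. This was a 101.1-fold lower level with ATRA (−6.66 on the log2 scale, and −5.10 in the second reading), and the 4 values follow that order for every gene below. Both ATRA arrays were low and both other arrays were high, with no overlap. Krt33a, another acidic shaft keratin, read 10620, 270, 799 and 25443 (−5.30). Its basic partner Krt81 read 10449, 341, 1594 and 31730 (−4.94), again with a wide gap between the arrays with and without ATRA. Krt83, listed on the array as 5430421N21Rik, read 6249, 194, 726 and 22479 (−5.01). The 8 bright shaft keratins had a median of −4.32, and the smallest difference among them was that of Krt35, a keratin of the lower cortex and cuticle, at −2.78.

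The keratin-associated proteins embed the shaft keratins in a sulfur-rich matrix. Their 32 bright members had a median of −5.10, lower than that of the keratins, and 8 of them read below 2 times the random probes on ATRA, where a fold is only a lower bound. Krtap7-1 (chr16:89507946-89508568, MM9) read 7063, 51.4, 994 and 22708, which is at least 101.5-fold lower on ATRA than on Control. Krtap3-1 (chr11:99427340-99427947, MM9) read 4547, 90.02, 446 and 13936 (−5.66), and its 2 targets gave −6.46 and −4.86. Krtap8-1, the brightest of those named, read 27091, 1432, 7899 and 54307 (−4.24), so its transcript stayed well above background on the ATRA array.

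The promoters of 2 of these genes are printed because the TATA element just before the start, written TATAAA and shown in capitals, was frequent among the lower genes. Each stretch is the 80 bases before the transcription start in RefSeq, build GRCm38.p6, with Krt34 at chr11:100041555-100041634 and Krtap3-1 at chr11:99566631-99566710, both on the minus strand and written 5′ to 3′.
Krt34: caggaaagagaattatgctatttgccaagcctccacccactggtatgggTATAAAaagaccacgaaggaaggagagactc
Krtap3-1: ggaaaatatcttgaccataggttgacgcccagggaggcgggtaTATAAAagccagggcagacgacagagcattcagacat
TATAAA on the gene's strand within 50 bases before the start was in 61.5% of the promoters of the 48 hair genes (24 of 39 promoters matched), 28.8% of those of the 2-fold lower genes, 11.6% of those of the 2-fold higher genes, 3.23% of those of bright genes and 2.63% of all 32851 promoters in the table. It was also in 8 of 16 promoters of bright SPRR and LCE3 genes. Of the 17 bright genes on that list 6 were 2-fold higher and 1 was lower, so TATAAA was not confined to lower genes. Keratin and Krtap genes are close paralogs and share promoter sequence, so their promoters are not separate observations. A match is a description of the letters only.

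The inner root sheath, which moulds the shaft and breaks down before the hair emerges, had smaller differences at the median but overlapped with the shaft keratins. Trichohyalin (Tchh, chr3:93246251-93252999, MM9), which hardens the sheath, read 31273, 6524, 11162 and 46098 (−2.26 and −2.05 in the second reading). Krt25 read 19349, 2947, 4472 and 23029 (−2.72), and Krt71 read 30875, 10642, 8723 and 42996 (−1.54 and −2.30). Both arrays with ATRA were below both arrays without it for each of these genes. Of the 10 bright genes in the inner root sheath list 7 were 2-fold lower and none was higher, with a median of −2.11. The lowest were Krt72 (−3.57) and Krt26 (−2.96), below the −2.78 of the shaft keratin Krt35. The 3 within 2-fold were the cross-linking enzyme Tgm3 at 0.38, the protease inhibitor Cst6 at −0.66 and the transcription factor Gata3 at −0.31.

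Beside the named hair genes, the array carries many predicted genes and cDNA clones without a symbol. Of these, 56 bright ones lie within 200 kb of a Krtap gene, on 5 chromosomes, and 55 of the 56 were 2-fold lower, with a median of −3.68; 54 were lower in both readings. Over all bright genes 2.97% were 2-fold lower. The unnamed genes passed the same level rule, which high values on the arrays without ATRA could meet alone. Their share without that rule is not given here. Together with the 48 hair genes the 55 make 103 of the 189 lower genes, or 54.5%. The position of the unnamed genes is the only property known here, and no gene name was given to them.

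The lower genes therefore sat in blocks. In the type I keratin and Krtap cluster on chromosome 11 (99094074 to 100131185, MM9), 32 of 38 bright genes were 2-fold lower, with a median of −4.39. In the Krtap cluster on chromosome 16 all 35 bright genes were lower, with a median of −3.61, and in the Krtap5 cluster on chromosome 7 all 4 were. The type II keratin cluster on chromosome 15 was mixed, with 8 of 19 lower and 2 higher. By contrast, of the 51 bright genes in the epidermal differentiation complex on chromosome 3, 5 were lower and 9 higher, and the median was −0.02. All these cluster counts are of bright genes only, so the same limit of the level rule holds for them.

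**Figure D3:**
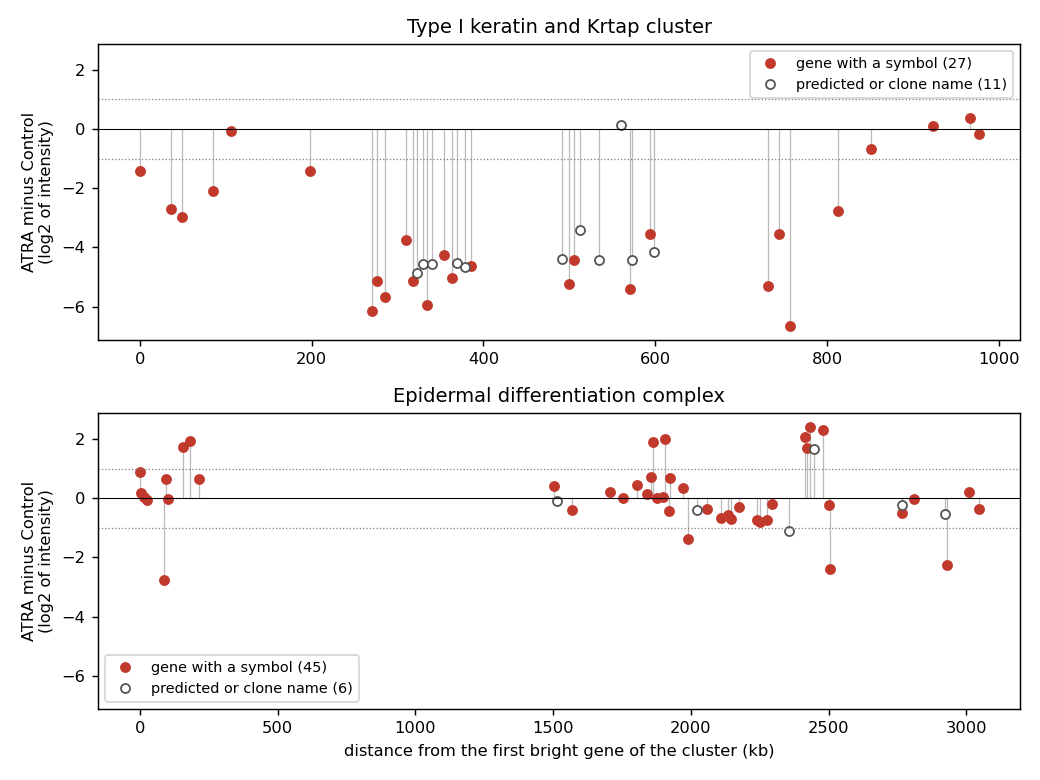
ATRA minus Control (log2 difference of intensity) of each bright gene along the type I keratin and Krtap cluster and along the epidermal differentiation complex, against the distance in kb from the first bright gene. Filled points have a gene symbol, open points have a predicted or clone name, and dotted lines mark 2-fold. The first cluster has 32 of 38 genes below the lower line, and the second has genes beyond both lines.

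Regulators of the follicle differed far less than its products. Dlx3, a homeobox factor of the hair matrix, read 3448, 1224, 872 and 5105 (−1.49 and −2.55), and Foxn1, the factor missing in nude mice, read 1307, 540, 631 and 2394 (−1.28 and −1.92). Both were low on the arrays with ATRA. The 11 bright hair matrix regulators, of 28 on the array, had a median of −0.04 for ATRA minus Control and −0.86 in the second reading. In the first reading 2 of the 11 were 2-fold lower, and in the second reading 5 were. Genes of the bulge, where hair follicle stem cells reside, had medians of −0.18 and −0.32. Krt15 read 3111, 1930, 1513 and 6957 (−0.69, and −2.20 in the second reading), and Sox9 read 810, 478, 450 and 1372 (−0.76 and −1.61). None of the 9 bright bulge genes was beyond 2-fold for ATRA against Control, and 3 were 2-fold lower in the second reading.

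The summed intensity of the 6 hair shaft markers was 42652, 1723, 4661 and 116068 in the order above. The hair genes were thus also higher on NIC than on Control, with a median of 1.39 over the 48 genes, and higher on ATRA+NIC than on ATRA, with a median of 1.51. The stage of the hair cycle, which changes these genes in untreated skin, was not given, and its part in the difference was not tested.

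**Figure D4:**
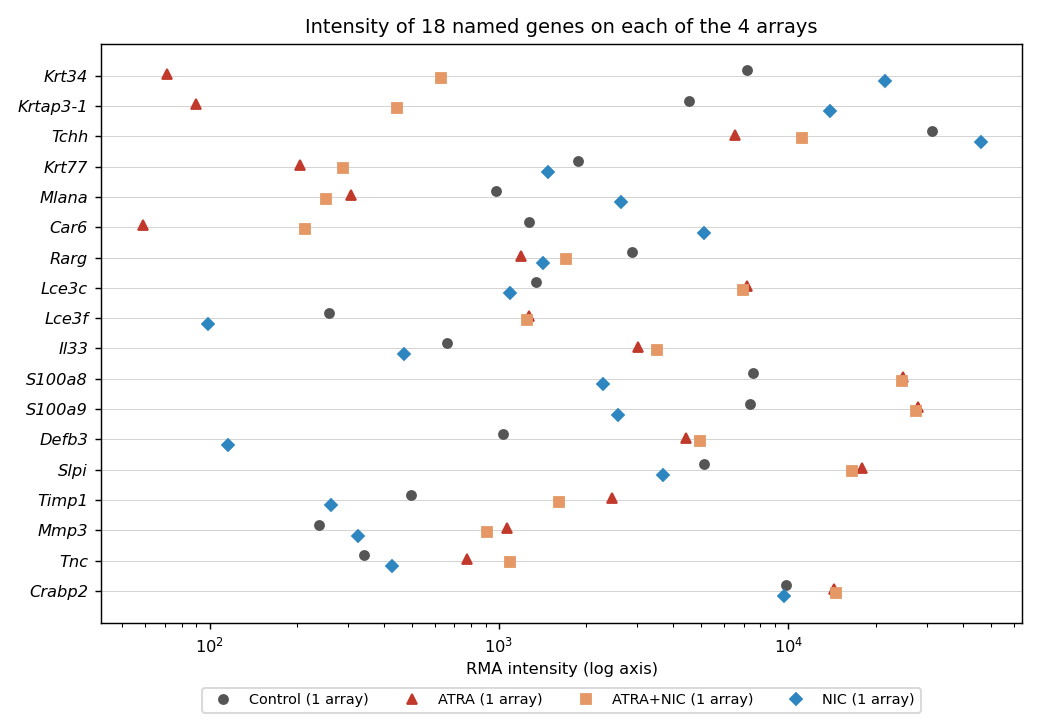
RMA intensity on a log axis of 18 genes on each of the 4 arrays, with 1 symbol per array. For Krt34 to Car6 the arrays with ATRA lie to the left of the arrays without it, from Lce3c down they lie to the right, and for Rarg the Control array alone stands apart.

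Of the 86 lower genes that were neither hair genes nor unnamed neighbours of Krtap genes, 67 had a symbol, and 35 of the 86 were lower in both readings. Several had the profile of the hair genes, with the highest value on NIC. Carbonic anhydrase 6 (Car6) read 1265, 58.7, 213 and 5110, at least 18.2-fold lower on ATRA than on Control. The orphan receptor Gprc5d, known from the hair follicle as well as from plasma cells, read 1234, 61.5, 240 and 3752, at least 17.7-fold lower. S100a3, a calcium-binding protein of the hair cuticle, read 15889, 2360, 2107 and 34272 (−2.75 and −4.02). In each case both ATRA arrays lay far below the others. Dapl1, the metallothionein Mt4 of squamous epithelia, Ly6g6d, Vsig8 and Cryba4 were also lower in both readings, between −1.79 and −4.09 for ATRA minus Control.

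Other lower genes are known from the epidermis, but whole skin RNA does not show which cells they came from. Krt77, a type II keratin of the suprabasal epidermis and sweat ducts, read 1873, 205, 288 and 1472 (−3.19 and −2.35). Lce1m, a late cornified envelope gene, read 3624, 688, 1537 and 4141 (−2.40 and −1.43), and Sprr4 read 5717, 2226, 2635 and 7839 (−1.36 and −1.57). Both ATRA arrays were low for all 3 genes, with no overlap. The vitamin D receptor Vdr, needed for hair cycling, read 3229, 1213, 1147 and 3697 (−1.41 and −1.69). Alox12e, an epidermis-type lipoxygenase, read 990, 254, 175 and 1305 (−1.96 and −2.90). Lce1m, Sprr4, Vdr and Alox12e were highest on NIC, as the hair genes were, and Krt77 was highest on Control. The main structural proteins of the upper epidermis were not among the 2-fold lower genes. Lor, which encodes loricrin, read 44983, 34236, 40494 and 40541 (−0.39). Over the 28 bright suprabasal and envelope genes none was 2-fold higher, and the median was −0.31. The 3 lower ones were Krt77, Lce1m and Tchh, which is also a gene of the inner root sheath. The 12 bright basal keratinocyte genes had a median of 0.15, and none was beyond 2-fold.

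Some of the largest differences came from a single array. Cnksr3, a scaffold protein measured by 1 target, read 9164 on Control but 236, 261 and 185 on the other arrays (−5.28, and 0.49 in the second reading). The Control array alone was high, so its second reading did not repeat the direction. Myh4, a fast skeletal muscle myosin, read 1499, 475, 564 and 288 (−1.66 and 0.97), also with Control highest.

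Among the higher genes the LCE3 family came first. These small envelope proteins are known from healing skin and psoriasis more than from resting skin. Lce3c (chr3:92749137-92749507, MM9) read 1345, 7194, 6969 and 1095, a 5.35-fold higher level (2.42 on the log2 scale, and 2.67 in the second reading). Lce3f (chr3:92796147-92797348, MM9) read 259, 1267, 1246 and 98.8 (2.29 and 3.66), and Lce3a read 1031, 4332, 3669 and 256 (2.07 and 3.84). Both arrays with ATRA were high and both without it were low for every one. Lce3b read 530, 1730, 2299 and 113 (1.71 and 4.35), and Lce3d, listed as Gm9782, read 963, 3064, 4566 and 557 (1.67 and 3.04).

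The 80 bases before the start of 4 LCE3 genes are printed to show which runs of letters these neighbouring promoters share. Capitals mark runs of at least 8 bases that occur in 3 or more of the 4 genes' 250 bases before the start. The coordinates are RefSeq GRCm38.p6, with Lce3a at chr3:92926231-92926310 on the minus strand, and Lce3b at chr3:92932899-92932978, Lce3c at chr3:92944406-92944485 and Lce3f at chr3:92992137-92992216 on the plus strand.
Lce3a: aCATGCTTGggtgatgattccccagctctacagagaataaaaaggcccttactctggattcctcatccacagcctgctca
Lce3b: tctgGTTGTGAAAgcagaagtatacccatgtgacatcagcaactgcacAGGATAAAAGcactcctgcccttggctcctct
Lce3c: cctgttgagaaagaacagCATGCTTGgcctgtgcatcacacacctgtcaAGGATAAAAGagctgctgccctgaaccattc
Lce3f: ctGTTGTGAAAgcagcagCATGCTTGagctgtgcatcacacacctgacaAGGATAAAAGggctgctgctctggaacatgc
Lce3b, Lce3c and Lce3f carry the same 10 capital letters before the start, and Lce3c and Lce3f resemble each other along most of the stretch. Lce3a lacks those 10 letters and has 1 capital run, of 8 bases.

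The SPRR genes, whose products are cross-linked into the same envelope, were split. Sprr2g read 961, 3604, 4776 and 251 (1.91 and 4.25), and Sprr2j-ps, an annotated pseudogene, read 259, 1027, 989 and 86.5 (1.99), with 1.25 and 2.73 from its 2 targets. Both stood high on the ATRA arrays. Sprr2i was already among the brightest genes, at 36943, 38369, 49416 and 31636 (0.05), and Sprr2b (0.44), Sprr1b (0.68) and Sprr2f (0.73) were within 2-fold for ATRA against Control and higher in the second reading, at 1.82, 1.52 and 2.57. Probes for such close paralogs can share signal, so a value may hold more than 1 family member. Of the 17 bright SPRR and LCE3 genes on the list 6 were 2-fold higher and 1 (Sprr4) lower, with medians of 0.44 and 1.79.

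The SPRR promoters are shown for the element TGANTCA, to which AP-1 factors bind and which is known from envelope genes. It is in capitals in 80 bases of Sprr1b (chr3:92438847-92438926, minus strand) and Sprr2f (chr3:92364954-92365033, plus strand), from RefSeq GRCm38.p6.
Sprr1b: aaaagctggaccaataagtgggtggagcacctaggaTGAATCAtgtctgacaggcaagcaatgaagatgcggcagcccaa
Sprr2f: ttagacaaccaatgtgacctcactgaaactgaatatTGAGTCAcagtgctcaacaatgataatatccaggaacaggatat
TGANTCA, searched on both strands from 250 bases before to 50 after the start, was in 8 of 16 promoters of bright SPRR and LCE3 genes, beside 7.81% of all promoters, 6.11% of those of bright genes, 11.6% of those of 2-fold higher genes and 12.3% of those of 2-fold lower genes. All 8 belonged to Sprr1 and Sprr2 genes within 2-fold. The 5 LCE3 promoters and those of Sprr4, Sprr2a and Sprr2a3 did not hold it. It was thus in none of the 6 matched promoters of genes beyond 2-fold. Sprr2g, the 2-fold higher SPRR gene of the list, was not matched. Family and 2-fold difference overlapped in these genes and could not be told apart. No match says only that these letters are not in this window.

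Antimicrobial and wound-response genes of keratinocytes were also higher. S100a8 and S100a9, which together form calprotectin, read 7522, 24863, 24707 and 2280 (1.72 and 3.44) and 7361, 28062, 27479 and 2583 (1.93 and 3.41). Defb3, a mouse beta-defensin, read 1031, 4433, 4959 and 116 (2.11 and 5.42). Slpi, an inhibitor of leukocyte proteases, read 5127, 17965, 16576 and 3682 (1.81 and 2.17). For each of these the ATRA and ATRA+NIC values nearly coincided, while NIC was below Control. Krt6a, a keratin of wounded and hyperproliferative epidermis, read 11503, 27575, 23646 and 6384 (1.26 and 1.89), whereas its partner Krt16 was bright throughout, at 32497, 41639, 40012 and 24985 (0.36). Of the 22 bright genes of the wound keratin and alarmin list 6 were 2-fold higher and 1 (S100a3) was lower, with a median of 0.42.

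Il33, the alarmin cytokine stored in the nuclei of keratinocytes and other barrier cells, read 661, 3027, 3500 and 468 (2.19 and 2.90; chr19:30020279-30035207, MM9). It was the only 1 of 9 bright interleukin-1 family and cytokine genes beyond 2-fold for ATRA against Control, and 3 of the 9 were 2-fold higher in the second reading. Without the level rule 6 of 27 such genes were 2-fold higher for ATRA against Control and none was lower. Of the 27, 11 read below 2 times the random probes on Control and 7 on ATRA, where a fold is at most a bound. Over all 24204 genes the shares were 4.63% higher and 5.39% lower. The interleukin-1 receptor antagonist Il1rn read 692, 1120, 1376 and 835 (0.69).

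Among the proteases that shed the cornified layer, the kallikrein Klk10 read 2637, 7656, 6181 and 3494 (1.54 and 0.82). Klk6 (0.97) and Klk13 (0.92) were just under 2-fold, and the 8 bright kallikrein genes of the chromosome 7 cluster had a median of 0.49, with none 2-fold lower. Serpinb2, a protease inhibitor of stressed keratinocytes, read 320, 763, 764 and 473 (1.25).

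Genes of white blood cells differed by cell type. Of 16 neutrophil genes on the array 4 were bright, so the level rule left most of them out. Without it, 10 of the 16 were 2-fold higher and none was lower, beside 4.63% of all 24204 genes higher and 5.39% lower. The 8 neutrophil markers summed to 15422, 54330, 52834 and 5498. Most of this was S100a8 and S100a9, which keratinocytes make as well. The markers that keratinocytes are not known for stayed dim, with Retnlg at 110, 405, 151 and 84.8, Csf3r at 48.9, 135, 122 and 49.8, and Ly6g at 47.1, 76.6, 68.0 and 70.5, and on Control 4 of the 8 read below 2 times the random probes. What part neutrophils had in the S100a8 and S100a9 values was not tested.

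Several receptors and a chemokine of myeloid cells, most of them picked after their values were seen, were 2-fold higher. Ms4a4a, a membrane protein of macrophages, read 385, 1568, 1011 and 405 (2.03 and 1.32). The chemokine Ccl8 read 1934, 4544, 3095 and 1624 (1.23), and the paired immunoglobulin-like receptor Pira2 read 534, 1405, 749 and 367 (1.40). These 3 genes were highest on ATRA and lower on ATRA+NIC, though still above both arrays without ATRA. Lilrb4, Pira6, Lilrb3, C5ar1 and Sfpi1, which encodes the myeloid factor PU.1, some of them also made by neutrophils, were between 1.04 and 1.33. The 15 bright macrophage and complement genes had a median of 0.38, with none beyond 2-fold and Cd163, a scavenger receptor of resident macrophages, highest at 0.99. The sum of 7 macrophage markers was 20427, 26305, 18378 and 13502. Mast cell genes were above 0 in all 5 of 5 bright members, by less than 2-fold, beside 3722 of all 6366 bright genes above 0. Carboxypeptidase Cpa3 read 1300, 2497, 2171 and 1222 (0.94), and the chymase Mcpt4 read 892, 1720, 1601 and 709 (0.95). The 5 bright mast cell genes had medians of 0.75 and 0.83. Without the level rule the 11 mast cell genes on the array had a median of 0.46, with none beyond 2-fold. On Control 4 of the 11 read below 2 times the random probes. MHC class II and antigen presentation genes had a median of −0.33, with none of 8 beyond 2-fold. Of 22 T, NK and B cell genes on the array 1 was bright, Thy1 at −1.06, which other skin cells also make. Without the level rule 2 of the 22 were 2-fold higher and 2 lower, and 6 T cell markers summed to 2232, 1556, 1310 and 1384.

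Matrix genes of the dermis were higher in part. Timp1, the tissue inhibitor of metalloproteinases (chrX:20447389-20451859, MM9), read 495, 2465, 1606 and 262 (2.32 and 2.61), and stromelysin Mmp3 read 239, 1064, 910 and 325 (2.15 and 1.49). Both were low without ATRA and high with it. Elastin (Eln) read 2921, 6301, 5699 and 3430 (1.11), the collagen-binding proteoglycan lumican (Lum) read 2721, 5701, 5334 and 2572 (1.07), and tenascin C (Tnc) read 341, 777, 1093 and 427 (1.19), with its 3 targets ranging from −0.03 to 1.82. Collagen itself was close to level, with Col1a1 at 28780, 31605, 30740 and 32430 (0.14). Of the 31 bright collagen and matrix genes 25 were above 0, beside 3722 of all 6366 bright genes, and 3 were 2-fold higher. Their median was 0.36 in the first reading and 0.18 in the second, and 18 of 31 had the same sign in both. Of the 11 bright endothelial genes 9 were above 0 and none was beyond 2-fold, with medians of 0.54 and 0.53. Without the level rule the 24 endothelial genes on the array had a median of 0.18, with 1 gene 2-fold higher and 2 lower. A separate set of 7 endothelium markers had a median of −0.10. The summed fibroblast markers moved little, at 51045, 56956, 52979 and 50561.

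Other higher genes included enzymes of several kinds. Carbonic anhydrase 2 (Car2) read 526, 1852, 1868 and 810 (1.82 and 1.21), and the steroid-metabolising reductase Akr1c18 read 1240, 3932, 4150 and 765 (1.66 and 2.44). Lactoperoxidase (Lpo), an antibacterial enzyme of secretions, read 345, 1110, 1456 and 148 (1.69 and 3.30), and the steroid hydroxylase Cyp17a1 read 948, 3037, 2503 and 1060 (1.68 and 1.24). All 4 genes were high on both ATRA arrays. Degs2, which makes the hydroxyl group of phytoceramides, read 1428, 3521, 3271 and 1112 (1.30) and was the only 1 of 27 bright ceramide genes beyond 2-fold. Of the targets of the oxidative stress factor NRF2, Nqo1 read 453, 1075, 538 and 405 (1.25), high on ATRA, and Gsta4 read 342, 804, 1028 and 325 (1.23), high on both ATRA arrays. That list of 39 had 3 higher, 1 lower (Mt4) and a median of 0.15. Bhmt (1.91), Igfbp1 (1.47), Dmgdh (1.40) and Hfe2 (1.36), all known from liver, were also among the higher genes. Of these, Bhmt read 899, 3388, 3273 and 2791, its 2 targets gave 0.41 and 3.42, and its second reading was 0.23, and Igfbp1 read 434, 1207, 865 and 1362, its second reading being −0.66.

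Genes of the retinoid pathway itself showed small differences. Crabp2, which carries retinoic acid to its receptor and is a standard marker of ATRA in skin, read 9768, 14341, 14542 and 9651 (0.55 and 0.59). It was higher on both arrays with ATRA, by less than 2-fold. Of the enzymes that degrade retinoic acid, Cyp26b1 read 1283, 1616, 1566 and 1376 (0.33), and Cyp26a1 stayed at the level of the random probes, at 22.5, 29.4, 24.7 and 25.0. None of the 17 bright genes of retinoid metabolism and binding was beyond 2-fold for ATRA against Control. Their median was 0.29 in the first reading and 0.28 in the second. Ttr, 1 of the 17, is also on the liver list (−0.08 and 0.60), and the part of other tissue in these medians was not tested.

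The 3 bright retinoic acid and retinoid X receptors were below 0 for ATRA minus Control and above 0 in the second reading. Rarg, the main retinoic acid receptor of epidermis (chr15:102065376-102087879, MM9), read 2890 on Control and 1195, 1702 and 1423 on the other arrays (−1.27, and 0.26 in the second reading). The Control array alone was high. Rarb, whose gene is a direct RAR target in many cells, read 36.9, 38.8, 41.6 and 36.6, at the level of the random probes, and Rara (−0.38 and 0.34) and Rxrb (−0.29 and 0.05) were within 2-fold in both readings. Of the epidermal growth factor ligands linked to retinoid thickening of epidermis, Epgn read 277, 476, 855 and 396 (0.78 and 1.11), and Hbegf was below the bright level, at 181, 347, 225 and 108. Of the 15 bright receptors and known targets, 1 was 2-fold higher (Lcn2, an iron-scavenging lipocalin, at 1891, 3937, 4664 and 1115), 1 was lower (Rarg), and the median was 0.21.

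The DNA element of RAR with its partner is a pair of AGGTCA in direct repeat, 1, 2 or 5 bases apart. With every letter required, on both strands, such a pair was in 19 of the 32851 promoters (0.0578%), in none of 69 promoters of the 2-fold higher genes and in none of 146 of the 2-fold lower genes. The single AGGTCA was in 16.3% of all promoters, 14.5% of those of higher genes and 8.90% of those of lower genes. Real elements vary in their letters and often lie outside 300 bases around a start, so no factor's binding can be read from these counts.

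Genes of pigment cells were lower too. BALB/c mice are albino but keep melanocytes in the hair bulb. Mlana, a melanosome protein, read 977, 309, 253 and 2648 (−1.66 and −3.39), Pmel, listed as Si, read 1553, 791, 457 and 3324 (−0.97 and −2.86), and Dct read 1209, 706, 649 and 3026 (−0.78 and −2.22). All 3 were low on both ATRA arrays and highest on NIC. The 5 bright melanocyte genes had medians of −0.78 and −2.72, with 1 of 5 beyond 2-fold for ATRA against Control, and their median for NIC against Control was 1.32. The 7 melanocyte markers summed to 5003, 2674, 2017 and 12391, close to the order of the hair shaft markers.

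**Figure D5:**
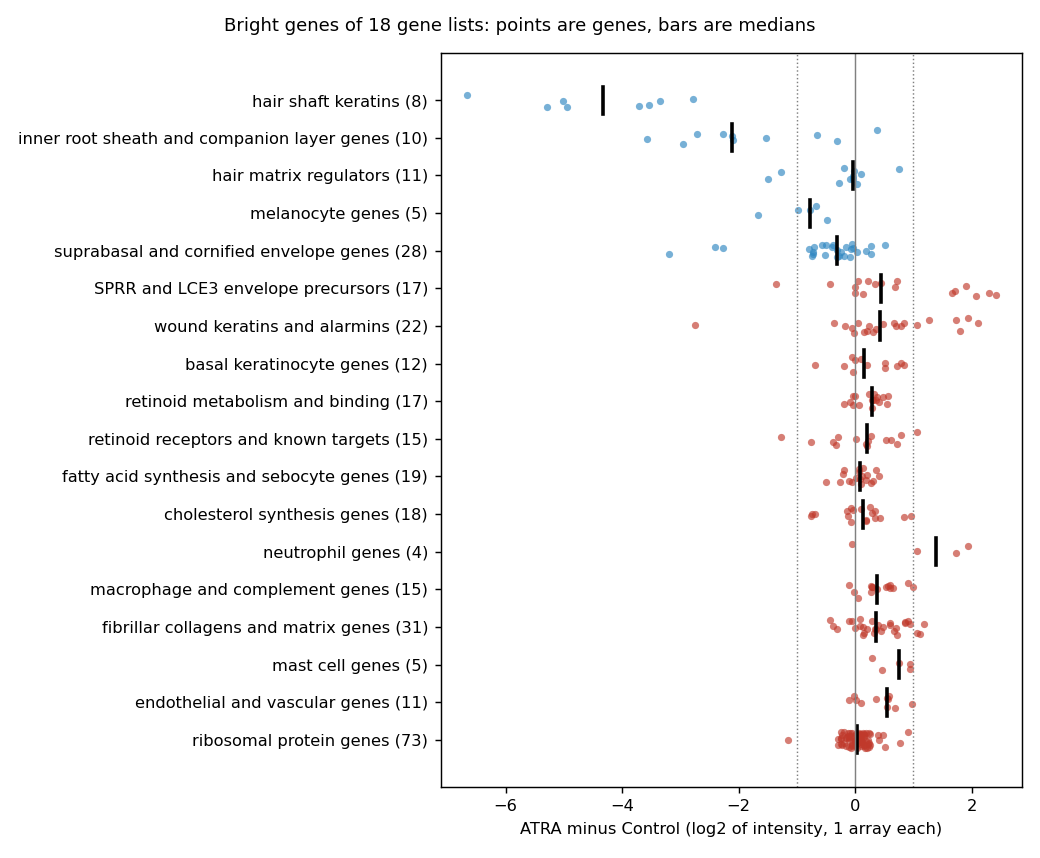
ATRA minus Control (log2 difference of intensity, 1 array each) for the bright genes of 18 lists, with 1 point per gene, a black bar at the list's median and the number of bright genes in parentheses. Dotted lines mark 2-fold. Hair shaft keratins have a median of −4.32 and lie wholly below the lower line, while ribosomal protein genes have a median of 0.04 and cluster about 0.

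Several large groups had no member, or 1 member, beyond 2-fold. None of 18 bright cholesterol synthesis genes (median 0.14), 19 fatty acid and sebocyte genes (0.08), 9 NAD and nicotinamide genes (0.04), 71 respiratory chain genes (0.15) or 22 cell cycle genes (0.27, and −0.29 in the second reading) was 2-fold higher or lower. Of 73 ribosomal protein genes 1 was lower, Rpl26 at −1.15, whose 2 targets gave −2.21 and −0.08, and the median of the list was 0.04.

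Agreement between the targets of 1 gene limits how closely a value can be read. Among bright genes with 2 or more targets the median spread between the targets' differences was 0.47 (log2), and 1.16 at the 90th percentile. Of the 92 higher genes 15 had 2 or more targets, and in 7 of them every target was 2-fold higher. Of the 189 lower genes 34 had 2 or more, and in 20 every target was 2-fold lower. The genes next to the level limit were Birc5 just inside, with a mean of 8.5004 and a difference of 0.62, and Cog5 just outside, with 8.4998 and −0.36. In all, 676 genes outside the limit reached it on Control or on ATRA alone.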

How the data were processed

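Total RNA of 4 mouse skins was hybridised to 4 NimbleGen 1-colour (Cy3) arrays, 1 per group. Per the file headers, the authors deposited RMA intensities on a linear scale, 1 per target, and 44155 of 44170 targets have 3 probes. RMA is a background correction, a between-array normalization and a probe summary. The authors ran it before deposit, with software not given in the sources used here. Gene positions are MM9, per the file headers. Intensities were taken to log2, and the targets of a gene were averaged on log2. Genes with a mean over the 4 arrays of 8.5 or more were described. A target or gene below 2 times the RMA intensity of the 5000 random probes, 1 value per array, was read as a bound. The number of arrays limits the precision, and with 1 array per group no p-value was computed.

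The arrays have 1 sample each, so differences were described as counts beyond 2-fold, list medians and values per array. ATRA+NIC minus NIC shares no array with ATRA minus Control and was read beside it. Named genes were the 15 highest and 15 lowest with a symbol, the same outside hair genes, the 10 in each direction by the smaller of both differences, and, for each of 47 gene lists, the 4 largest differences and the brightest gene. The members and lists were chosen with earlier results of these data known. The lists of liver, heart and other tissue genes and the TATAAA search were added after values were seen, and genes named outside the rule (Lce3b, Gm9782, Krt35, Krt6a, Krtap8-1, Tgm3, Gata3, Sprr1b, Sprr2b, Sprr2f, Rara, Rxrb, Rarb, Cyp26a1, Cyp26b1, Igfbp1, Sprr4, Vdr, Pira2, Pira6, Lilrb3, Lilrb4, Sfpi1, C5ar1, Lpo, Cyp17a1, Dmgdh, Hfe2, Retnlg, Csf3r, Ly6g, Hbegf, Xist and genes of the added lists) were chosen after their values were seen. Current symbols came from RefSeq, where 39057 targets matched by gene ID, and 5113 kept the file's name. Promoters came from RefSeq GRCm38.p6, where 60 of the 92 higher, 125 of the 189 lower and 38 of the 48 hair genes matched.

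The authors' value table holds 24323 targets with the same intensities (largest relative difference 9.05e-07). A further 4 columns of per-sample values were not used. The counting steps were tested on simulated data. Python 3.11.15, pandas 2.3.3, numpy 2.4.6, matplotlib 3.10.9, R 4.3.3 and limma 3.58.1 (cyclic loess and quantile alternatives) were used.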

Additional observations from a re-analysis of the deposited data

Results flagged for a closer look

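Among bright genes with a symbol, 3 were 2-fold apart in ATRA minus Control and 2-fold apart the other way in ATRA+NIC minus NIC, and this difference was not tested. Des, the muscle intermediate filament desmin, read 1310, 603, 1006 and 499 on Control, ATRA, ATRA+NIC and NIC (−1.12 and 1.01). Sec24d, a coat protein of transport vesicles, read 1575, 533, 806 and 385 (−1.56 and 1.07). Tmem216, a protein of the ciliary transition zone, read 279, 723, 266 and 602 (1.37 and −1.18).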

How the results depend on the processing

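The reported 92 higher, 189 lower, 30 higher in both and 137 lower in both depended on the level and fold limits. With genes at 9.5 or more, 44 were higher and 17 higher in both. With genes bright on both arrays, 59 were higher, 99 lower and 61 lower in both, and the hair shaft median was −3.24. With no level filter, 1121 were higher, 1305 lower, 174 higher in both and 316 lower in both, and that median was −3.44; at 8 or more it was −3.62. The brightest target per gene gave 158 higher. A 1.5-fold limit gave 563, 470, 164 and 212, and a 3-fold limit gave 22 higher, 124 lower and 16 higher in both. The other settings stayed within 1.5 times of each count: median centring (110 higher, 182 lower), cyclic loess (75, 209), quantile normalization (85, 196) and the authors' value table (107, 186). A setting added after seeing the data kept genes whose every target was beyond 2-fold (84, 175). Genes with 1 target could not fail it, and most of the reported genes have 1. Among those with 2 or more targets it kept 7 of 15 higher and 20 of 34 lower genes. Leaving out the listed liver and heart genes, or the hair genes, could only give 92 and 189, or 92 and 141, because no listed liver or heart gene was beyond 2-fold and all 48 hair genes were lower. Of 2171 recomputed differences of 228 named genes 12 moved by more than 1.5-fold, among them Bhmt (0.41), Tnc (1.82), Crym (−3.77), Sprr2j-ps (1.25) and Rpl26 (−0.08) with the brightest target. A change of sign was looked for only where the reported difference was 2-fold or more, and none was found there. Smaller differences were not checked for sign. No paired analysis was possible because each group has 1 array and no test was made. Signal near the random probes turns the fold of 9 hair genes into a lower bound.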
